A study of Caenorhabditis elegans with 12 samples.

Results

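The change of gene expression with age in animals carrying daf-2(e1370) was set against the change over the same days in wild type. All 12 libraries of the series entered the comparison, as 4 groups of 3 biological repeats: daf-2(e1370) animals of strain CF1041 at day 9 and at day 1 of adulthood, and wild-type animals of strain N2 at day 9 and at day 1. RNA came from whole adult C. elegans of both genotypes that had been fed OP50 bacteria and kept from the last larval stage or young adulthood on FUdR, a drug that blocks DNA synthesis and hence offspring, so both genotypes and both ages carried that treatment. The quantity reported for each gene, called the interaction, is the log2 change from day 1 to day 9 in daf-2 minus the log2 change from day 1 to day 9 in wild type. A value below 0 means that the gene rose less, or fell more, with age in daf-2 than in wild type.

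In worms, insulin-like peptides act through a single receptor of the insulin and IGF type, the product of daf-2. Once it is bound, a chain of kinases (AGE-1, PDK-1, AKT and SGK-1) keeps the FOXO transcription factor DAF-16 out of the nucleus. The e1370 allele is a missense change that lowers the receptor's activity without removing it. In such animals DAF-16 is nuclear and active, genes of stress resistance, immunity and fat metabolism are expressed at other levels, and adults live longer than wild type. Since the samples are whole animals, fewer cells of a type and less RNA per cell cannot be told apart in any of the values below. The daf-2 transcript itself (chromosome III, 2994514 to 3040846 on WBcel235, the build of all coordinates here) had 135, 150 and 182 CPM (counts scaled to a common library size) in daf-2 at day 9, 131, 132 and 149 in daf-2 at day 1, 140, 103 and 129 in wild type at day 9 and 109, 110 and 87.3 in wild type at day 1. Because e1370 alters the protein and not the transcript, this level does not check the genotype labels.

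The libraries held 20322128 to 47447136 counts. Of 15523 genes tested with edgeR's quasi-likelihood test, 807 (5.20%) had an interaction with a Benjamini-Hochberg adjusted p under 0.05, here referred to as called, and 3691 had an unadjusted p under 0.05. Of the called genes 713 (4.59% of those tested) had an interaction below 0 and 94 (0.606%) had one above 0. The median called interaction was -1.55 in the first set and 0.81 in the second, against -0.05 over all tested genes, and 603 and 40 of them reached 2-fold. Of all tested genes, called or not, 53% had an interaction below 0, the share to set beside the family counts that follow. The count of lower genes ran from 376 to 1073 when 1 library was left out. It was 473 without wild-type day 1 replicate 2, 388 and 376 without wild-type day 9 replicates 2 and 3, 384 and 468 without daf-2 day 1 replicates 1 and 2, 445 and 448 without daf-2 day 9 replicates 1 and 2, and 1073 without daf-2 day 1 replicate 3. The count of higher genes ran from 28 to 237 over the same 12 fits. It was 216, 41 and 157 without wild-type day 1 replicates 1, 2 and 3, 47, 28 and 28 without wild-type day 9 replicates 1, 2 and 3, 39, 56 and 237 without daf-2 day 1 replicates 1, 2 and 3, and 54 and 42 without daf-2 day 9 replicates 1 and 2. A core of 327 genes, 307 lower and 20 higher, was called in the full fit and in each of those 12 fits.

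Genes whose change with age was called in both genotypes mostly moved in the same direction in both. Across the tested genes, which are not independent replicates, the daf-2 change followed the wild-type change with Pearson's r = 0.79 and a slope of 0.71. The median size of the change with age was 0.49 on the log2 scale in daf-2 and 0.64 in wild type. Ageing was called for 6705 genes (43.2%) in daf-2 and 8783 (56.6%) in wild type, and for 10284 in either. Of the 5204 genes called in both, 5116 moved in the same direction and 88 in opposite directions.

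**Figure D1:**
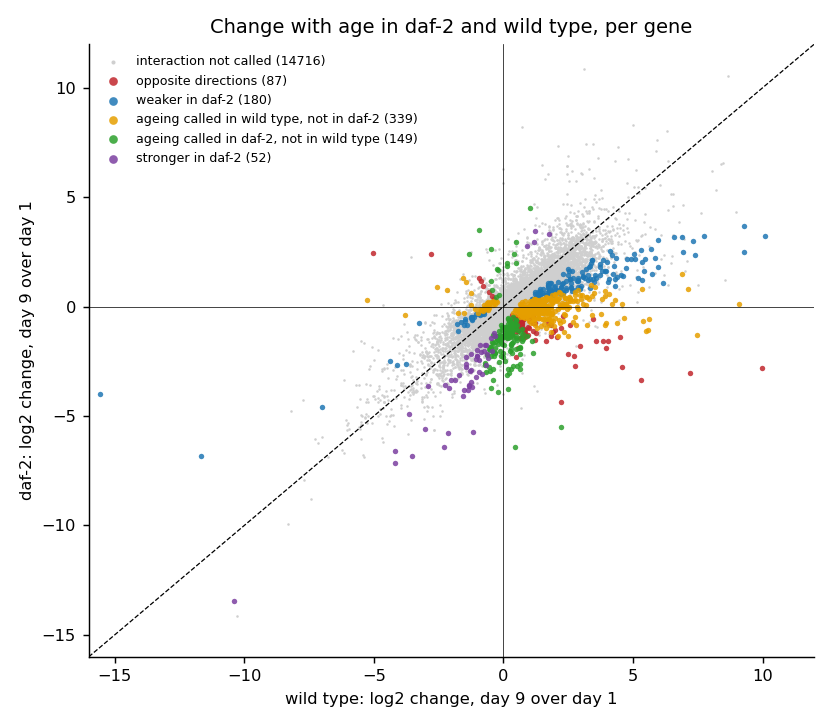
Log2 change from day 1 to day 9 in daf-2 (vertical axis) against the change in wild type (horizontal axis) for 15523 genes, 1 point each; coloured points are the 807 genes called for the interaction, by class, and the dashed line marks equal changes. Most coloured points lie below the line, in the region where wild type rose and daf-2 rose less, did not pass the test or fell.

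The 807 called genes fell into 5 patterns. The most frequent, with 339 genes, was a change with age that was called in wild type and not in daf-2: 299 of them rose in wild type and 40 fell. For 180 genes both changes were called in the same direction and the daf-2 change was the smaller, with 153 rises and 27 falls. For 149 genes the change was called in daf-2 and not in wild type, and 134 of these fell in daf-2 while 15 rose. For 87 genes both changes were called and had opposite signs: 79 fell in daf-2 and rose in wild type, and 8 did the reverse. The last 52 genes changed in the same direction in both genotypes and more in daf-2, 48 of them falling and 4 rising. Within a class the sign of the interaction largely fixes whether a gene rose or fell. These splits therefore repeat the division of the called genes into lower and higher, and nothing more is read from them. The median change with age in the group with opposite signs was -0.85 in daf-2 and 0.75 in wild type, and in the group of stronger changes -2.91 in daf-2 and -1.22 in wild type. The sizes of the groups moved with the total count when a library was left out. Without wild-type day 9 replicate 3 there were 146 genes with no called change in daf-2, 96 weaker, 80 gained, 51 opposite and 31 stronger, with like counts without wild-type day 9 replicate 2 or daf-2 day 1 replicate 1. Without daf-2 day 1 replicate 3 there were 584 genes with no called change in daf-2, 256 gained, 138 opposite and 105 stronger. The count of stronger changes was 87 without daf-2 day 9 replicate 3.

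Among the genes that fell in daf-2 and rose in wild type, those of largest interaction that met the conditions for naming were cpr-4, argk-1 and far-3. The conditions leave out genes with under 10 counts in a group, such as spp-9 and spp-21, which also had opposite changes. The gene cpr-4 (chromosome V, 6614674 to 6615851), which encodes a secreted cathepsin B-like cysteine protease, had 14.8, 2.97 and 4.21 CPM in daf-2 at day 9 and 190, 170 and 76.8 CPM in daf-2 at day 1. In wild type it had 111, 181 and 70.3 CPM at day 9 against 25, 20.3 and 31.8 CPM at day 1. The day 9 and day 1 libraries did not overlap in either genotype, and the order of the ages was opposite: the interaction was -6.60 ± 0.83 (SE; edgeR adjusted p = 0.0016). The arginine kinase gene argk-1 (chromosome V, 16103894 to 16105952), whose enzyme stores phosphate for ATP supply, had 1.84, 0.577 and 1.22 CPM in daf-2 at day 9, against 3.42, 3.42 and 6.34 CPM in daf-2 at day 1. Wild type showed 9.69, 21.1 and 12.1 CPM at day 9 against 0.989, 1.02 and 0.752 CPM at day 1, so that the highest values of all 4 groups were in old wild-type animals. Its interaction was -5.87 ± 0.62 (adjusted p = 0.00041). The third gene, far-3 (chromosome V, 12996787 to 12997522), codes for a fatty acid and retinol binding protein. It had 69.3, 96.3 and 78.8 CPM in daf-2 at day 9 and 314, 319 and 96.3 CPM in daf-2 at day 1, where replicate 3 lay at the level of the highest day 9 library. In wild type the values were 482, 538 and 432 CPM at day 9 against 26.7, 32.1 and 30.8 CPM at day 1, and the interaction was -5.59 ± 0.51 (adjusted p = 0.00019). These 3 genes were called in each of the 12 fits that left out 1 library.

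Reversal in the other direction was seen for 8 of the 94 genes with a higher interaction, against 79 of the 713 with a lower one. The gene comt-4 (chromosome V, 2049217 to 2050185), of the catechol-O-methyltransferase family, had 37.6, 40.7 and 37 CPM in daf-2 at day 9 and 8.62, 8.74 and 4.59 CPM in daf-2 at day 1, without overlap. In wild type it had 3.98, 2.68 and 2.6 CPM at day 9 against 17.9, 43.4 and 4.14 CPM at day 1, a group whose libraries spread over a wide range. Its interaction was 5.20 ± 0.88 (adjusted p = 0.008), and it was called in all 12 fits without a library. The other named gene of this kind, pcbd-1, which encodes a dehydratase that recycles tetrahydrobiopterin, had an interaction of 0.94 ± 0.25 (adjusted p = 0.048). That call was kept in 1 of the 12 fits, the one without daf-2 day 9 replicate 1, and the adjusted p was up to 0.107 in the others.

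**Figure D2:**
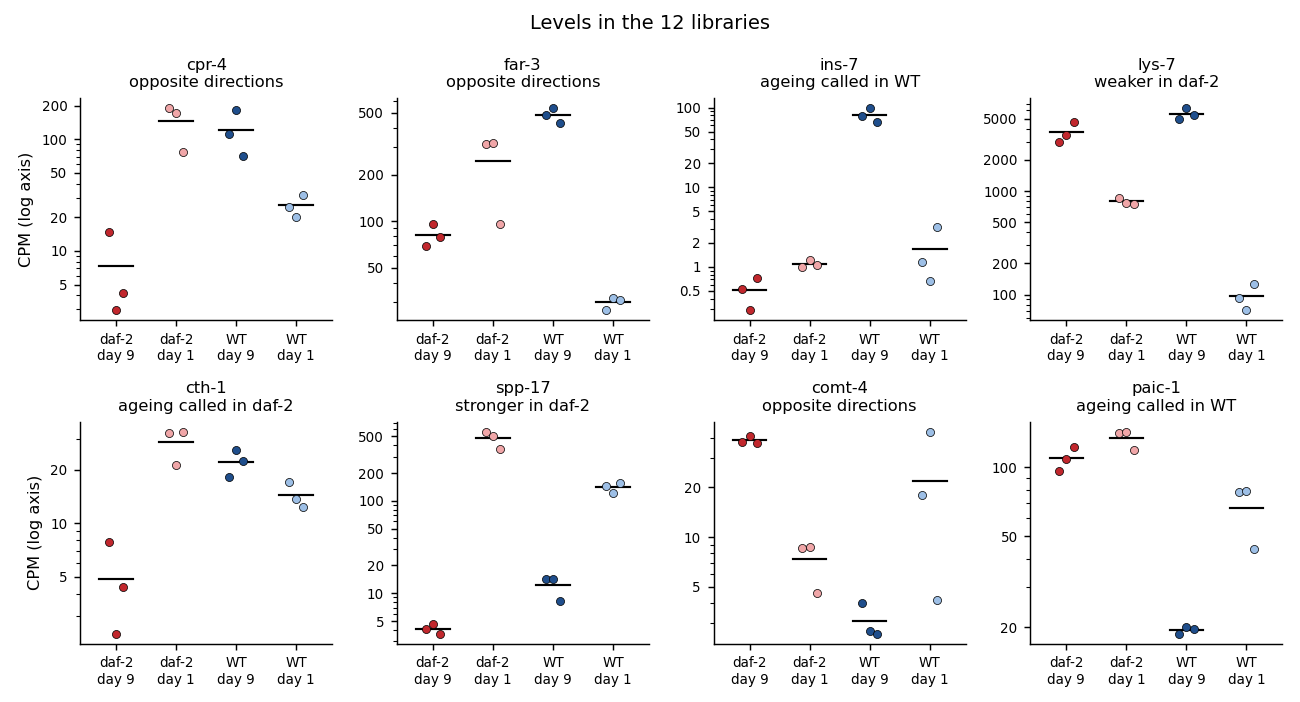
Level in CPM (vertical log axis) of 8 genes in the 12 libraries, in the order daf-2 day 9, daf-2 day 1, wild type (WT) day 9 and wild type day 1; each point is a library, the line is the mean of 3, and the words under a name give the class of the change with age in daf-2 relative to wild type. For ins-7 the 3 wild-type day 9 libraries, at 65.1 to 98.7 CPM, lie above the other 9, which reach 3.21 CPM.

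Insulin-like peptides are the ligands of DAF-2. Of 39 such genes 27 were tested, 4 (14.8%) were called, all with a lower interaction, and 23 of the 27 had an interaction below 0 (median -1.08, against -0.05 over all tested genes). The gene ins-7 (chromosome IV, 9682011 to 9682845), known as an activating ligand whose intestinal expression DAF-16 lowers, had 0.52, 0.288 and 0.725 CPM in daf-2 at day 9 and 0.99, 1.21 and 1.07 CPM in daf-2 at day 1. It had 79, 98.7 and 65.1 CPM in wild type at day 9 and 1.15, 0.66 and 3.21 CPM in wild type at day 1. The 3 old wild-type libraries stood far above the other 9, which was the pattern of a rise with age in wild type (log2 change 5.50 ± 0.45, adjusted p = 3.6e-06) and no called change in daf-2 (-1.10 ± 0.53, adjusted p = 0.12). Its interaction was -6.60 ± 0.69 (adjusted p = 0.00058), called in every fit without a library. The neighbouring gene ins-8 (chromosome IV, 9680337 to 9680941) was at or close to 0 in daf-2, with 2 counts at day 9 and 3 at day 1, and had 3.45, 4.18 and 2.76 CPM in wild type at day 9 against 1 count in wild type at day 1. Its call (adjusted p = 0.016) was lost without daf-2 day 1 replicate 3, the library with those 3 counts. The peptide genes ins-11 (-3.83 ± 0.90) and ins-6 (-2.23 ± 0.55) had at most 1.38 and 2.44 CPM in any library. The number of called peptide genes fell to 2 without wild-type day 1 replicate 2, any of the wild-type day 9 replicates, daf-2 day 1 replicate 3, or daf-2 day 9 replicate 1 or 2.

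Downstream of the receptor, 2 of 27 genes of the insulin pathway were called (7.41%, median interaction 0.14). The kinase gene sgk-1 (chromosome X, 16254842 to 16262122) had 15.8, 13.6 and 20.9 CPM in daf-2 at day 9 and 28.3, 31.3 and 20.5 CPM in daf-2 at day 1. Wild type had 34.3, 37.9 and 41.6 CPM at day 9 against 23.8, 22.8 and 24.6 CPM at day 1. It fell with age in daf-2 and rose in wild type, with an interaction of -1.34 ± 0.25 (adjusted p = 0.0096). The gene for the kinase that activates AKT and SGK-1, pdk-1, changed by 0.79 ± 0.12 with age in wild type and by 0.00 ± 0.11 in daf-2, where its mean was 23.8 CPM at both ages. Its interaction of -0.79 ± 0.16 (adjusted p = 0.015) lost the call without wild-type day 9 replicate 3 (adjusted p = 0.0559), which left 1 called gene in this list. The transcripts of daf-16 (0.45 ± 0.16, adjusted p = 0.11), age-1 (0.35 ± 0.17, adjusted p = 0.22), akt-1 (0.14 ± 0.15, adjusted p = 0.60) and daf-2 (-0.10 ± 0.20, adjusted p = 0.80) were not called.

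Genes that the literature lists as raised by DAF-16 had a larger called share than the 5.20% of all genes. So did those listed as lowered by it (26.9%). Of 44 tested DAF-16 targets 12 were called (27.3%), all with a lower interaction, and the median was -0.52. The median difference daf-2 over wild type of the 44 was 0.77 at day 9 and 1.04 at day 1. Among those 12, the change in daf-2 was weaker for 7, opposite for 2, not called for 2 and stronger for 1. In the 12 fits without 1 library between 8 and 11 of the targets were called. The lysozyme gene lys-7 (chromosome V, 3481432 to 3482600) had 3003, 3483 and 4693 CPM in daf-2 at day 9 and 859, 773 and 755 CPM in daf-2 at day 1. In wild type it had 4931, 6338 and 5430 CPM at day 9 against 92.8, 71.2 and 128 CPM at day 1. The genotypes thus differed at day 1 (daf-2 over wild type 3.03, adjusted p = 4.8e-06) and the difference at day 9 was not called (-0.58, adjusted p = 0.11). Its interaction was -3.61 ± 0.31 (adjusted p = 7.7e-05). The noncoding RNA gene tts-1 (chromosome X, 1504131 to 1504841), known to be abundant in daf-2 animals and bound to ribosomes, had 1151, 1608 and 1449 CPM in daf-2 at day 9 and 338, 353 and 250 CPM in daf-2 at day 1. Wild-type animals had 752, 823 and 884 CPM at day 9 against 22.7, 22.8 and 34.4 CPM at day 1. It stayed above wild type at both ages while the gap narrowed (interaction -2.78 ± 0.27, adjusted p = 0.00016).

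The order of the groups varied among the DAF-16 targets, and dct-8 had the order of lys-7. The gene dct-8 had 20.8 ± 9.28 CPM in daf-2 at day 9, 9.87 ± 4.62 in daf-2 at day 1, 39.6 ± 1.02 in wild type at day 9 and 0.533 ± 0.254 in wild type at day 1 (SD, n = 3), an interaction of -5.05 ± 0.63 (adjusted p = 0.0016). The ferritin gene ftn-1, which codes for an iron-storage protein, had 72.9 ± 22.9, 29.4 ± 11.3, 28.5 ± 4.57 and 0.653 ± 0.886 CPM in the same 4 groups (-3.89 ± 0.76, adjusted p = 0.015), not called when daf-2 day 9 replicate 2, daf-2 day 1 replicate 1 or wild-type day 9 replicate 3 was left out (adjusted p up to 0.0593). The mitochondrial superoxide dismutase gene sod-3, a common reporter of DAF-16 activity, was not called: it had 35.6, 84.9 and 54.2 CPM in daf-2 at day 9 and 51.6, 56.2 and 49.5 CPM in daf-2 at day 1. The wild-type libraries had 3.9, 5.02 and 3.27 CPM at day 9 against 7.45, 6.78 and 5.98 CPM at day 1 (interaction 0.88 ± 0.37, adjusted p = 0.18). The metallothionein gene mtl-1 rose in both genotypes, by 2.94 in daf-2 and 3.58 in wild type on the log2 scale, and its interaction was not called (-0.65 ± 0.63, adjusted p = 0.57). Of 26 genes lowered by DAF-16 in the literature, 6 were called with a lower and 1 with a higher interaction (26.9%, median -0.67), a share near that of the targets. They include ins-7 and cpr-1, and the stearoyl desaturase gene fat-7, with 0.48, 0.397 and 0.643 CPM in daf-2 at day 9 and 26, 23.5 and 23.7 CPM in daf-2 at day 1. Levels in wild type were 12.9, 10.2 and 15.5 CPM at day 9 against 93.8, 137 and 84.7 CPM at day 1. It fell in both genotypes and more in daf-2 (interaction -2.55 ± 0.32, adjusted p = 0.001).

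Saposin-like genes, lysozymes and cathepsin B-like genes, which serve digestion and killing of bacteria, were among the families with the largest called shares. Related lists had smaller ones. Of 13 aspartyl protease genes 2 were called lower (15.4%, median -0.64), and 0 to 4 in the fits without 1 library. Of 28 intestinal genes 2 were called lower (7.14%, median -0.60), and 1 to 6 in those fits. Worms eat bacteria, and saposin-like proteins, lysozymes and cathepsins are secreted or lysosomal proteins that open membranes, cut cell walls and degrade proteins. Of 24 tested saposin-like genes 12 were called (50%), all lower, with a median interaction of -1.77, and 22 of 24 had an interaction below 0. Between 11 and 16 were called in the fits without 1 library, and 10 were called in the full fit and in each of those fits. Of 13 lysozyme genes 8 were called, all lower (61.5%, median -2.60), which fell to 4 without daf-2 day 1 replicate 1. All 8 cathepsin B-like genes had an interaction below 0 (median -2.68) and 4 were called. That count was 2 without replicate 1 or 2 of daf-2 at either age, replicate 1 or 2 of wild type at day 9, or replicate 2 or 3 of wild type at day 1. The summed level of the saposin-like genes ran from 1302 to 1790 CPM in daf-2 at day 9, from 2560 to 4107 in daf-2 at day 1, from 2514 to 3302 in wild type at day 9 and from 1709 to 2003 in wild type at day 1. In daf-2 the old libraries lay below the young ones, and in wild type above them. The lysozymes summed to 3731 to 5842 CPM in daf-2 at day 9 and 2876 to 4891 in daf-2 at day 1, which overlapped, and to 6126 to 7750 in wild type at day 9 and 1744 to 2391 in wild type at day 1. At day 9 most of that sum in both genotypes was lys-7. Over all libraries it had 969741 counts, against 171687 for the next member, lys-2. The lys-7 log2 change with age was 2.23 in daf-2 and 5.83 in wild type. For lys-2, lys-8 and lys-1, next in counts, it was -3.03, -1.12 and -2.57 in daf-2 and -2.02, 0.58 and -0.71 in wild type. The cathepsins summed to 472 to 887 CPM in daf-2 at day 9, 2121 to 3333 in daf-2 at day 1, 865 to 1383 in wild type at day 9 and 1581 to 2009 in wild type at day 1, so that the old libraries lay below the young ones in both genotypes. The 4 intestinal markers elt-2, ges-1, ifb-2 and act-5 summed to 97.5 to 190 CPM in daf-2 at day 9, 776 to 1186 in daf-2 at day 1, 211 to 212 in wild type at day 9 and 711 to 961 in wild type at day 1. None of the 4 was called for the interaction, their median was -0.80, and their part in the result was not tested.

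**Figure D3:**
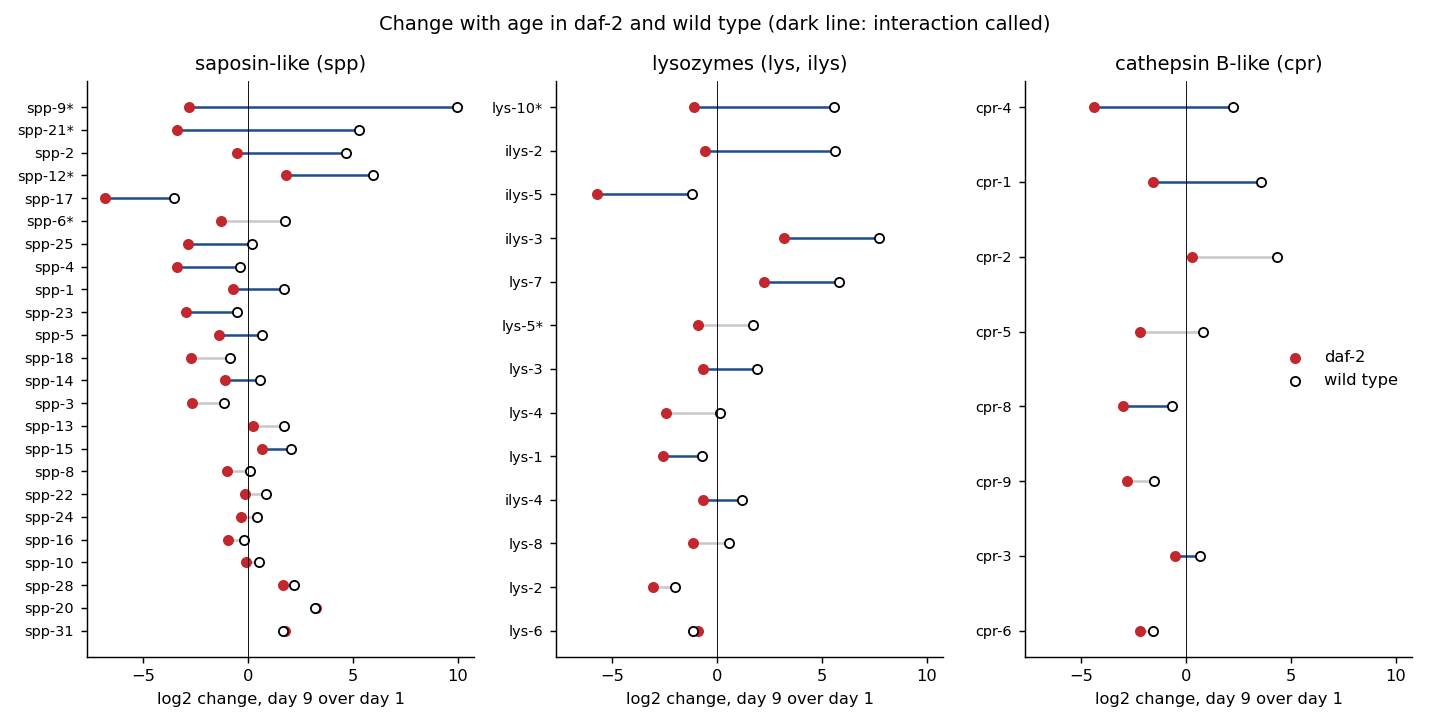
Log2 change from day 1 to day 9 (horizontal axis) of 24 saposin-like, 13 lysozyme and 8 cathepsin B-like genes, 1 row each; filled points are daf-2, open points are wild type, a dark line marks a called interaction, and an asterisk marks a gene with under 10 counts in 1 of the 4 groups. The daf-2 point lies left of the wild-type point for 22, 12 and 8 of them.

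The saposin-like genes differed in the class of their change. Reversal was seen for spp-1 (chromosome III, 10355098 to 10355668), which encodes an antibacterial protein: 88.7, 75.6 and 108 CPM in daf-2 at day 9 against 172, 159 and 120 CPM in daf-2 at day 1, and 233, 317 and 273 CPM in wild type at day 9 against 100, 98.2 and 52.7 CPM in wild type at day 1. Neither genotype's ages overlapped, and the interaction was -2.45 ± 0.34 (adjusted p = 0.0028). For spp-14 (chromosome X, 7725979 to 7726383) the values were 312, 266 and 259 CPM in daf-2 at day 9 and 643, 571 and 580 CPM in daf-2 at day 1. Wild-type levels were 435, 575 and 410 CPM at day 9 against 328, 315 and 324 CPM at day 1. The libraries of a group lay close together, and its interaction of -1.65 ± 0.19 had an adjusted p of 0.00053. The gene spp-2 (chromosome X, 7315995 to 7316818) had 47.1, 21.3 and 114 CPM in daf-2 at day 9 and 114, 100 and 49.7 CPM in daf-2 at day 1, which overlapped. It had 255, 280 and 282 CPM in wild type at day 9 and 11.8, 8.64 and 12 CPM in wild type at day 1, an interaction of -5.18 ± 0.71 (adjusted p = 0.0028). Next to it, spp-5 and spp-4 fell in daf-2 without a called change in wild type, with interactions of -2.07 ± 0.41 and -2.97 ± 0.57. Another fall in daf-2 alone passed the test for spp-25, with 2.32, 0.685 and 2.22 CPM in daf-2 at day 9 and 15.2, 14.3 and 7.16 CPM in daf-2 at day 1. The wild-type values were 6.82, 11.5 and 7.29 CPM at day 9 against 6.46, 8.46 and 7.86 CPM at day 1 (-3.01 ± 0.58, adjusted p = 0.013).

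The gene spp-17 (chromosome I, 1016405 to 1017176) fell in both genotypes, and more in daf-2. It had 4.12, 4.65 and 3.65 CPM in daf-2 at day 9 and 562, 501 and 363 CPM in daf-2 at day 1. Its wild-type level was 14.3, 14.1 and 8.17 CPM at day 9 against 145, 123 and 157 CPM at day 1. Daf-2 was above wild type at day 1 (1.74, adjusted p = 0.00022) and below it at day 9 (-1.56, adjusted p = 0.00081), and the interaction was -3.30 ± 0.31 (adjusted p = 0.00017). The neighbouring spp-9 and spp-21 on chromosome X had 1 count each in the 3 wild-type day 1 libraries together. The first had 3.64, 2.51 and 0.56 CPM in daf-2 at day 9, 5.53, 6.16 and 33.7 in daf-2 at day 1 and 27.1, 24.8 and 7.71 in wild type at day 9. Daf-2 day 1 replicate 3 stood above its group for both, with 20.2 CPM of spp-21 against 2.64 and 2.47 in replicates 1 and 2. No called member of the family had a higher interaction. The 2 members with an interaction above 0 were spp-20, whose change with age was 3.24 in daf-2 and 3.21 in wild type on the log2 scale, and spp-31, with 1.78 in daf-2 and 1.69 in wild type.

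Among the lysozymes, ilys-3 (chromosome IV, 2464456 to 2465443), an invertebrate-type lysozyme that breaks bacterial cell walls, had 15.9, 12.2 and 7.38 CPM in daf-2 at day 9 and 1.65, 1.32 and 0.814 CPM in daf-2 at day 1. Wild type had 50.4, 61.7 and 28.9 CPM at day 9 against 0.26, 0.18 and 0.205 CPM at day 1. It rose in both genotypes and less in daf-2 (interaction -4.52 ± 0.62, adjusted p = 0.0024), a call not made by limma voom. Its neighbour ilys-2 had 0.23 ± 0.0811 CPM in daf-2 at day 9, 0.324 ± 0.134 in daf-2 at day 1, 8.84 ± 2.1 in wild type at day 9 and 0.19 ± 0.201 in wild type at day 1 (SD, n = 3), and rose in wild type alone by the test (-6.20 ± 0.81, adjusted p = 0.0014). The gene ilys-5 (chromosome X, 6533490 to 6536840) fell with age in both genotypes and more in daf-2. It had 0, 0.162 and 0.145 CPM in daf-2 at day 9 and 9.45, 8.11 and 2.61 CPM in daf-2 at day 1. Wild-type animals had 162, 265 and 108 CPM at day 9 against 397, 401 and 414 CPM at day 1. It was lower in daf-2 at both ages, and its interaction was -4.54 ± 0.82 (adjusted p = 0.011; not called by limma voom). Of the remaining lysozymes, lys-8 (-1.70 ± 0.55, adjusted p = 0.093) and lys-6 (0.24, adjusted p = 0.83) were among the 5 not called.

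The protease gene cpr-1 (chromosome V, 11975551 to 11976756) had 5.36, 2.88 and 5.68 CPM in daf-2 at day 9 and 11.7, 12.3 and 17.2 CPM in daf-2 at day 1. The wild-type libraries had 267, 367 and 229 CPM at day 9 against 38.9, 25.3 and 9.67 CPM at day 1. Like cpr-4 it fell with age in daf-2 and rose in wild type (-5.14 ± 0.62, adjusted p = 0.0013). The most abundant member by counts over all libraries, cpr-6, fell in both genotypes and was not called (-0.62, adjusted p = 0.24).

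Secreted defence proteins of other families showed smaller shares. Defensin-like and thaumatin genes came closest, with 3 of 7 called, all lower (42.9%, median -1.85), and 0 to 3 in the fits without 1 library. Of 118 C-type lectin genes, whose products bind sugars, 15 were called lower and 2 higher (14.4%, median -0.63). The lower count was 9 without wild-type day 9 replicate 1 or daf-2 day 1 replicate 1 and 8 without daf-2 day 9 replicate 1. The higher one was 1 without wild-type day 9 replicate 1 or 2 or replicate 1 of daf-2 at either age, and 0 without wild-type day 1 replicate 2, wild-type day 9 replicate 3 or daf-2 day 9 replicate 2. The member with the smallest p, clec-146 (chromosome II, 13590641 to 13593774), had 49.4, 48 and 56.5 CPM in daf-2 at day 9 and 19.2, 15.9 and 14.2 CPM in daf-2 at day 1. Levels in wild type were 152, 183 and 177 CPM at day 9 against 12.1, 9.9 and 11.9 CPM at day 1 (-2.27 ± 0.18, adjusted p = 6.4e-05). It rose in both genotypes, and old wild-type animals had the highest values. The infection marker clec-60 had 4.16, 2.07 and 3.9 CPM in daf-2 at day 9, 1.03, 1.32 and 6.77 in daf-2 at day 1, 9.65, 10.1 and 12.6 in wild type at day 9 and 1 count in the wild-type day 1 libraries together (adjusted p = 0.0039).

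Of 19 antimicrobial peptide genes of the epidermis (cnc and nlp-29 cluster) 6 were called, all lower (31.6%, median -1.17), and 3 without daf-2 day 1 replicate 1. For cnc-4 the values were 23.8 ± 6.86 CPM (SD, n = 3) in daf-2 at day 9 and 4.91, 4.05 and 2.57 CPM in daf-2 at day 1. Wild-type levels were 75.1, 91.2 and 75.5 CPM at day 9 against 1.77, 1.68 and 1.26 CPM at day 1 (-3.08 ± 0.37, adjusted p = 0.001). The gene nlp-29 itself, which is induced by fungal infection and wounding, rose in both genotypes and was not called (-1.03 ± 0.39, adjusted p = 0.14). Of 14 fungus-induced peptide genes 2 were called: fip-6 (chromosome I, 8945533 to 8946244) fell in daf-2 and rose in wild type, and had 12.1, 6.58 and 8.95 CPM in daf-2 at day 9 and 13.5, 15.4 and 11.8 CPM in daf-2 at day 1. The wild-type values were 24.2, 33.2 and 30.9 CPM at day 9 against 3.18, 2.28 and 2.6 CPM at day 1 (-4.02 ± 0.32, adjusted p = 6.4e-05). Its fall in daf-2 had an adjusted p that lay just under the threshold and rounds to 0.05.

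The p38 MAP kinase PMK-1 controls much of the intestinal immune response. Of 24 genes of that pathway and its neighbours 6 were called lower and 0 higher (25%, median -0.27). The pmk-1 transcript was not called (-0.34 ± 0.17, adjusted p = 0.25), nor was that of its upstream kinase sek-1 (-0.17 ± 0.17, adjusted p = 0.57). The members that passed were not the core kinases: vhp-1, a phosphatase that restrains PMK-1 and the JNK-like kinase KGB-1, had 120 ± 18.9 CPM (SD, n = 3) in daf-2 at day 9 and 113, 108 and 75 CPM in daf-2 at day 1. Its wild-type level was 97.5, 99 and 103 CPM at day 9 against 39.9, 32.6 and 41.7 CPM at day 1 (-1.10 ± 0.22, adjusted p = 0.014). The beta-catenin gene bar-1 rose in wild type without a called change in daf-2 (-1.21 ± 0.23, adjusted p = 0.012), and vhp-1 and bar-1 were the 2 members called in every fit without a library. The count fell to 2 without wild-type day 1 replicate 2, wild-type day 9 replicate 2 or 3, daf-2 day 1 replicate 1, or daf-2 day 9 replicate 1 or 2, and to 3 without wild-type day 1 replicate 3.

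Of 27 PMK-1 effector genes, the immune genes that depend on this kinase, 6 were called, all lower (22.2%, median -0.80). The effector sysm-1 (chromosome II, 9082626 to 9083193) had 6.03, 3.1 and 2.61 CPM in daf-2 at day 9 and 47.9, 40.4 and 48.3 CPM in daf-2 at day 1. Wild type had 26.9, 45.2 and 13.3 CPM at day 9 against 69.5, 86.5 and 56.1 CPM at day 1. It fell in both genotypes and more in daf-2, with an interaction of -2.27 ± 0.56 (adjusted p = 0.04). That call was kept without wild-type day 9 replicate 3 or daf-2 day 9 replicate 1 and lost without each of the other 10 libraries (adjusted p up to 0.119), and also under RLE scaling, without the filter on low counts and with limma voom. The effector count was 1 without daf-2 day 1 replicate 1, 2 without wild-type day 9 replicate 1 or 3 or daf-2 day 9 replicate 1 or 2, and 3 without wild-type day 1 replicate 2, wild-type day 9 replicate 2 or daf-2 day 1 replicate 2.

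Among transcription factors of longevity and stress, 2 of 39 were called (5.13%, median -0.25), near the share of all genes. The bZIP factor gene zip-10 (chromosome V, 11650079 to 11650762) had 26.4, 12.5 and 20.3 CPM in daf-2 at day 9 and 58.1, 31.8 and 36.6 CPM in daf-2 at day 1. Wild-type animals had 43.2, 45.4 and 42.6 CPM at day 9 against 11.3, 20.4 and 27.5 CPM at day 1. It fell with age in daf-2 and rose in wild type, without overlap between the ages in either, and its interaction was -2.25 ± 0.47 (adjusted p = 0.021). The call was lost without any of the 3 wild-type day 9 replicates or daf-2 day 1 replicate 1 (adjusted p up to 0.061) and without the filter on low counts. The gene hlh-30, for a factor that drives autophagy and lysosome genes, rose in wild type with no called change in daf-2 (-0.83 ± 0.18, adjusted p = 0.022), not called when daf-2 day 9 replicate 1 or 2 or wild-type day 9 replicate 1 or 3 was left out (adjusted p up to 0.0632). The count of this list was 0 without wild-type day 9 replicate 1 or 3, 1 without wild-type day 9 replicate 2, daf-2 day 1 replicate 1 or daf-2 day 9 replicate 1 or 2, 4 without wild-type day 1 replicate 1, and 7 and 6 without replicate 3 of daf-2 at day 1 and day 9. The heat shock factor gene hsf-1 (0.28 ± 0.14, adjusted p = 0.26), the oxidative stress factor gene skn-1 (0.51 ± 0.17, adjusted p = 0.10) and the small heat shock gene hsp-16.2 (-0.50 ± 0.81, adjusted p = 0.75) were not called. Of these, hsp-16.2 rose in both genotypes, to 8.91, 6.83 and 8.39 CPM in daf-2 at day 9, against 3.34, 2.26 and 0.814 in daf-2 at day 1, and to 5.5, 6.93 and 6.33 CPM in wild type at day 9, against 2.34, 0.18 and 0.991 in wild type at day 1.

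Among genes of fat use, several fell with age in daf-2 and not, by the test, in wild type. Of 40 genes for lipases and fatty acid oxidation 8 were called lower and 2 higher (25%, median -0.38), and 6 to 11 were called lower in the fits without a library. Several act in peroxisomal beta-oxidation, the pathway that shortens the side chains of ascaroside pheromones. The acyl-CoA oxidase gene acox-1.1 (chromosome I, 12938555 to 12942227) had 18.3, 15 and 25.4 CPM in daf-2 at day 9 and 50.5, 49.8 and 40 CPM in daf-2 at day 1. The wild-type libraries had 54.9, 47.6 and 53.5 CPM at day 9 against 52.2, 44.8 and 36.2 CPM at day 1 (-1.49 ± 0.26, adjusted p = 0.0077). The next enzymes of that pathway, maoc-1 and dhs-28, had interactions of -1.32 (adjusted p = 0.01) and -1.41 ± 0.24 (adjusted p = 0.0062), and dhs-28 also rose in wild type, by 0.49 (adjusted p = 0.025). The last enzyme, daf-22, fell in daf-2 and missed the call (-0.89 ± 0.25, adjusted p = 0.059). The carnitine palmitoyltransferase gene cpt-3 (chromosome III, 2082819 to 2088314), of the family that carries fatty acids into mitochondria, had 3.76, 3.35 and 2.59 CPM in daf-2 at day 9 and 1.49, 1.47 and 0.471 CPM in daf-2 at day 1. Levels in wild type were 27.9, 22.6 and 22.9 CPM at day 9 against 0.677, 0.12 and 0.513 CPM at day 1. It rose in both and less in daf-2 (-4.24 ± 0.59, adjusted p = 0.0024).

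The 2 higher calls of the fat list were acdh-2 and acs-2, genes of an acyl-CoA dehydrogenase and an acyl-CoA synthetase. The first had 5.43, 9.84 and 7.98 CPM in daf-2 at day 9 and 3.92, 1.26 and 3.99 CPM in daf-2 at day 1. Wild-type levels were 14.8 ± 1.82 CPM (SD, n = 3) at day 9 and 73.4, 41.9 and 14.9 CPM at day 1, where the 3 libraries spread widely. Its interaction was 2.88 ± 0.72 (adjusted p = 0.043), and the call was kept without wild-type day 1 replicate 3 or daf-2 day 1 replicate 3 and lost without each of the other 10 libraries (adjusted p up to 0.123). Of the higher calls in this list, 0 were left without any of wild-type day 1 replicate 2, the 3 wild-type day 9 replicates, daf-2 day 1 replicates 1 and 2 and the 3 daf-2 day 9 replicates, and 1 without wild-type day 1 replicate 1.

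The gene cth-1 (chromosome V, 16100680 to 16102750) encodes cystathionine gamma-lyase, which makes cysteine. It had 7.83, 2.38 and 4.37 CPM in daf-2 at day 9 and 32.3, 21.3 and 32.9 CPM in daf-2 at day 1. The wild-type values were 18.2, 26 and 22.6 CPM at day 9 against 17.2, 13.7 and 12.3 CPM at day 1. Old daf-2 animals had the lowest values of the 4 groups, and the interaction was -3.23 ± 0.49 (adjusted p = 0.0046). A fall called in daf-2 and not in wild type was also found for nspc-20, of a nematode-specific secreted peptide family, with 3.07 ± 0.488 CPM in daf-2 at day 9, 22.1 ± 9.99 in daf-2 at day 1, 48.3 ± 6.67 in wild type at day 9 and 31.6 ± 12.5 in wild type at day 1 (SD, n = 3; -3.46 ± 0.50, adjusted p = 0.0036). The yolk protein gene vit-5 (chromosome X, 3403471 to 3408603) had 4980, 3569 and 8325 CPM in daf-2 at day 9 and 25473, 35344 and 19700 CPM in daf-2 at day 1. Its wild-type level was 22643, 24210 and 26740 CPM at day 9 against 32529, 32761 and 28504 CPM at day 1. Its fall was called in daf-2 and not in wild type (-1.90 ± 0.41, adjusted p = 0.018), and it was 1 of 6 vitellogenin genes called. Vit-5 shares reads with near-identical copies, so its level is uncertain. The call was lost without wild-type day 9 replicate 3 or daf-2 day 9 replicate 1 (adjusted p up to 0.0537), and without daf-2 day 9 replicate 3 the number of called vitellogenins was 2.

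Of 16 desaturase and elongase genes 4 were called, all lower (25%, median -0.21), and 2, fat-7 and fat-5, in each fit without a library. The palmitoyl desaturase gene fat-5 had 159, 165 and 173 CPM in daf-2 at day 9 and 225, 224 and 183 CPM in daf-2 at day 1. Wild type had 121, 102 and 109 CPM at day 9 against 41.4, 48.1 and 66.1 CPM at day 1 (-1.43 ± 0.21, adjusted p = 0.0029). The calls of fat-1 and fat-4 (-0.71 and -0.88, adjusted p = 0.03 and 0.047) were each lost in most of those fits, and the list's count was 2 without wild-type day 1 replicate 3, any wild-type day 9 replicate, daf-2 day 1 replicate 1 or 2, or daf-2 day 9 replicate 1 or 2.

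Among detoxification families, UDP-glycosyltransferases and glutathione S-transferases held calls in both directions, and cytochrome P450 genes held lower calls only. Of 62 cytochrome P450 genes 8 were called lower (12.9%, median -0.09), and 5 without wild-type day 1 replicate 2, wild-type day 9 replicate 2 or 3 or daf-2 day 1 replicate 1. The gene cyp-35B1 (chromosome V, 3939032 to 3941237) had 13.7, 9.83 and 9.02 CPM in daf-2 at day 9 and 7.71, 7.48 and 6.9 CPM in daf-2 at day 1. Wild-type animals had 2.71, 3.64 and 4.52 CPM at day 9 against 0.417, 0.36 and 0.513 CPM at day 1. Daf-2 was above wild type at both ages, and wild type rose (-2.48 ± 0.36, adjusted p = 0.0027). Of 63 UDP-glycosyltransferase genes 6 were called lower and 1 higher (11.1%, median -0.61), with 5 to 8 lower calls in the fits without a library. That 1 higher call, ugt-1, was lost in 8 of the 12 fits without a library: those without daf-2 day 9 replicate 3, any daf-2 day 1 replicate, or replicate 1 or 2 of wild type at either age. Of 39 glutathione S-transferase genes 3 were called lower and 2 higher (12.8%, median -0.13). The higher one with a large wild-type fall, gst-38 (chromosome V, 15915162 to 15916070), had 2.52, 2.52 and 2.45 CPM in daf-2 at day 9 and 11.7, 13 and 17.5 CPM in daf-2 at day 1. The wild-type libraries had 2.71, 2.95 and 3.02 CPM at day 9 against 65.4, 76 and 39.8 CPM at day 1. The genotype difference was called at day 1 (-2.10, adjusted p = 5.3e-05) and not at day 9 (-0.21, adjusted p = 0.63), and the interaction was 1.89 ± 0.32 (adjusted p = 0.0057). The other, gst-3, made the count of higher calls 1 when it lost its call without wild-type day 1 replicate 1, any wild-type day 9 replicate, daf-2 day 1 replicate 1 or 2 or daf-2 day 9 replicate 2.

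Families of secreted and membrane proteins with less studied roles were also represented. Of 48 transthyretin-related genes, a large nematode family named for a vertebrate carrier of thyroid hormone, 15 were called, all lower (31.2%, median -0.99), and 11 of them were called for ageing in wild type and not in daf-2. The count was 8 or 9 without wild-type day 9 replicate 2 or 3, daf-2 day 1 replicate 1 or 2 or daf-2 day 9 replicate 1 or 2, and 28 without daf-2 day 1 replicate 3. The gene ttr-32 (chromosome III, 7566411 to 7567523) had 6.31, 5.34 and 9.7 CPM in daf-2 at day 9 and 8.54, 7.48 and 5.1 CPM in daf-2 at day 1. Levels in wild type were 21.6, 30 and 23.8 CPM at day 9 against 4.69, 4.74 and 5.37 CPM at day 1 (-2.33 ± 0.35, adjusted p = 0.0031). The daf-2 groups overlapped, and the old wild-type libraries lay above all others. For ttr-26 the values were 180, 217 and 179 CPM in daf-2 at day 9 and 152, 162 and 55.8 CPM in daf-2 at day 1. Wild-type levels were 75.6, 101 and 82.2 CPM at day 9 against 5.88, 7.62 and 9.26 CPM at day 1 (-2.86 ± 0.46, adjusted p = 0.0064). Here daf-2 lay above wild type at both ages.

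Of 60 hedgehog-related and patched-related genes 8 were called lower (13.3%, median -0.57), and 5 without daf-2 day 1 replicate 1. Patched-related proteins are membrane proteins of the epidermis that act in moulting and growth. The gene ptr-22 had 3.8, 3.28 and 3.98 CPM in daf-2 at day 9 and 1.4, 0.843 and 0.814 CPM in daf-2 at day 1. The wild-type values were 12.4, 10.4 and 10.6 CPM at day 9 against 0.885, 0.24 and 0.581 CPM at day 1 (-2.42 ± 0.46, adjusted p = 0.011). The SCP-like secreted genes, a separate list, had 1 of 19 called, with a lower interaction (5.26%, near the share of all genes). This was lon-1 (chromosome III, 5474476 to 5478005), a secreted regulator of body size. It fell in daf-2 without a called change in wild type: 28.8, 23 and 27 CPM in daf-2 at day 9 and 57.7, 62.3 and 75.9 CPM in daf-2 at day 1. Its wild-type level was 88.8, 89.5 and 90.7 CPM at day 9 against 98.2, 72.1 and 74.8 CPM at day 1 (-1.45 ± 0.19, adjusted p = 0.0015).

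Of 140 cuticle collagen genes 11 were called, all lower (7.86%, median -0.23), a share not far from that of all genes. Its count depended on single libraries: 3 without wild-type day 9 replicate 2, 4 without daf-2 day 1 replicate 2 or daf-2 day 9 replicate 2, 5 without wild-type day 9 replicate 3, 6 without wild-type day 1 replicate 3 or daf-2 day 1 replicate 1, 7 without replicate 1 of wild type at day 9 or replicate 2 of wild type at day 1, and 19 without wild-type day 1 replicate 1. Collagens mostly fell with age in both genotypes as far as they passed the test (72 fell in daf-2 and 68 in wild type), while 13 rose in daf-2 and 19 in wild type. The gene col-183 (chromosome X, 13466643 to 13467764), the collagen with the smallest p for the interaction, rose in both. It had 27.4, 36.1 and 30.5 CPM in daf-2 at day 9 and 2.72, 3.21 and 1.37 CPM in daf-2 at day 1. Wild type had 73.6, 101 and 68.1 CPM at day 9 against 0.156, 0.18 and 0.0684 CPM at day 1 (-5.60 ± 0.51, adjusted p = 0.00014).

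The nuclear hormone receptor and neuropeptide families had a called share near or under that of all genes. Most of their members had an interaction below 0, a larger share than the 53% of all tested genes. Of 192 nuclear hormone receptor genes, ligand-controlled transcription factors that are unusually numerous in worms, 161 had an interaction below 0 (median -0.48) and 4 were called, all lower (2.08%). That count was 1 without daf-2 day 1 replicate 1, 2 without wild-type day 1 replicate 2, wild-type day 9 replicate 2 or 3 or daf-2 day 9 replicate 1 or 2, 9 without wild-type day 1 replicate 1 or daf-2 day 9 replicate 3 and 10 without daf-2 day 1 replicate 3. The 1 receptor gene called in every fit without a library was nhr-14 (-1.27 ± 0.21, adjusted p = 0.0054). Of 94 neuropeptide genes 81 lay below 0 (median -0.53) and 6 were called, all lower (6.38%). Among these 6, nlp-27, nlp-31 and nlp-34 belong to the nlp-29 cluster and are counted with the epidermal peptides as well. The neuropeptide count was 11 without daf-2 day 1 replicate 3, 2 without wild-type day 9 replicate 2 or 3 or daf-2 day 1 replicate 1, and 3 without each of the other libraries but wild-type day 1 replicate 1. Of 31 tested pals genes, which belong to the response to intracellular pathogens, 26 lay below 0 (median -0.78) and 3 were called lower (9.68%, above the 5.20% of all genes), with 5 called without wild-type day 1 replicate 3 or daf-2 day 1 replicate 3. The gene pals-26 (chromosome III, 4375154 to 4378907) had 35.2, 43 and 42.4 CPM in daf-2 at day 9 and 9.28, 11.2 and 8.83 CPM in daf-2 at day 1. Wild-type animals had 7.39, 10.1 and 9.64 CPM at day 9 against 0.573, 0.42 and 0.649 CPM at day 1 (-1.96 ± 0.27, adjusted p = 0.002). It rose in both genotypes, and old wild-type animals reached about the level of young daf-2 animals.

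**Figure D4:**
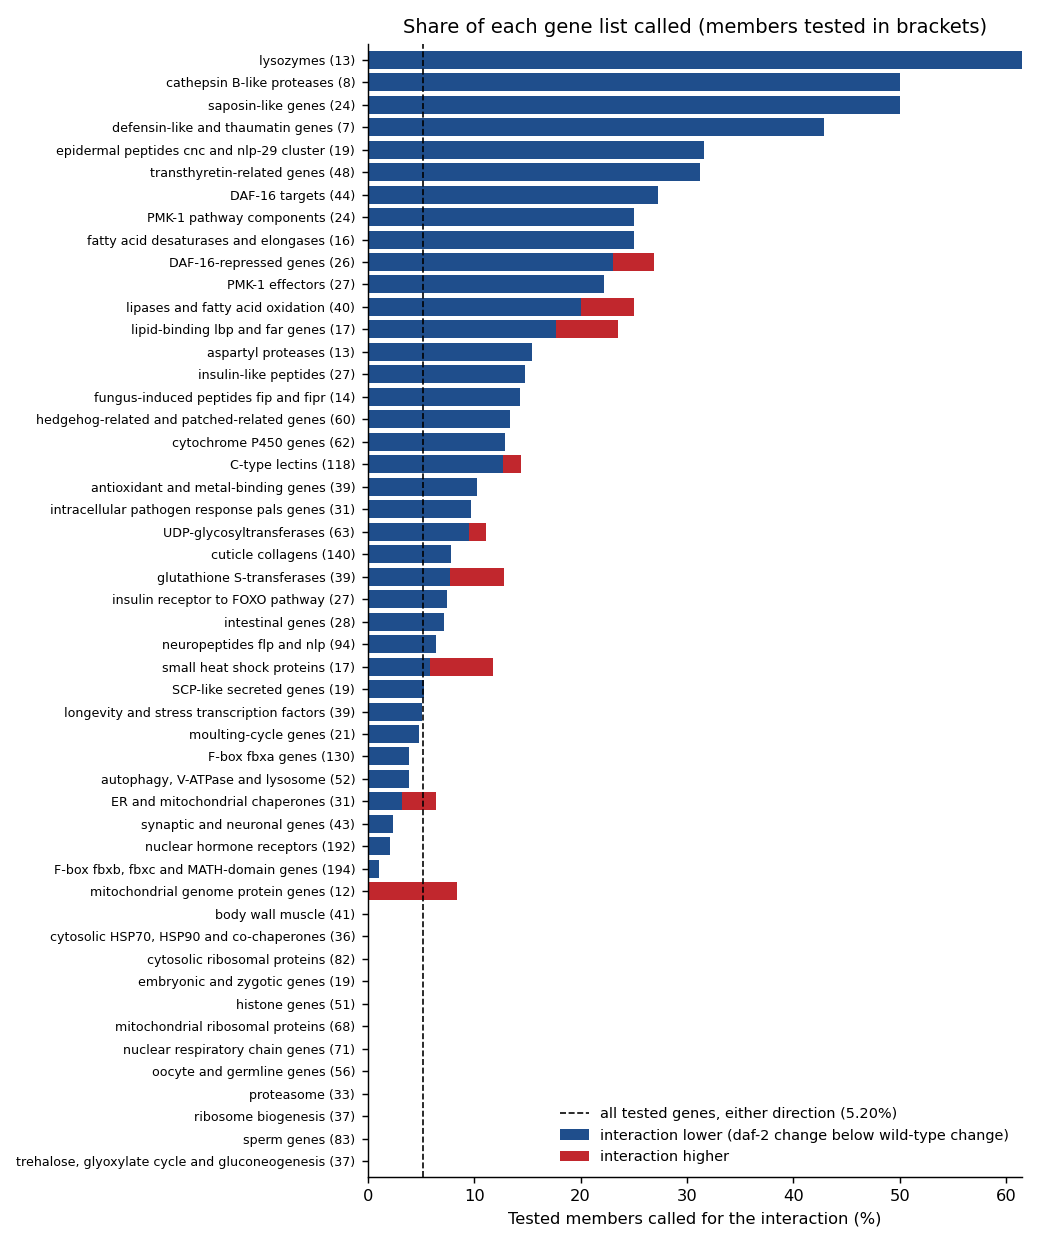
Share of the tested members of 50 gene lists (those with at least 7 tested members, number in brackets) that were called for the interaction, lower in blue and higher in red, with the share over all 15523 genes, 5.20%, as the dashed line. Lysozymes stand highest at 61.5%, and 12 lists at the foot have 0 called members.

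Genes with an interaction above 0 mostly fell with age in wild type and fell less, or did not pass the test, in daf-2. Of the 94, 40 fell in wild type without a called change in daf-2 and 27 fell in both and less in daf-2. Within these classes the sign of the interaction largely fixes the direction, so the falls themselves are not a separate result. The gene paic-1 (chromosome II, 4369625 to 4372525), an enzyme of purine synthesis, had 96.6, 109 and 123 CPM in daf-2 at day 9 and 134 ± 13.3 CPM (SD, n = 3) in daf-2 at day 1. The wild-type libraries had 18.8, 20.1 and 19.7 CPM at day 9 against 77.7, 78.5 and 44 CPM at day 1. Old wild-type animals had the lowest values, without overlap with any other group, and the interaction was 1.48 ± 0.26 (adjusted p = 0.0089). The DNA polymerase epsilon subunit gene pole-4 had 25.8 ± 1.15 CPM in daf-2 at day 9, 28.5 ± 2.28 in daf-2 at day 1, 20.3 ± 0.311 in wild type at day 9 and 37 ± 2.2 in wild type at day 1 (SD, n = 3; 0.71 ± 0.14, adjusted p = 0.013). Both calls held in all 12 fits without a library. The mitochondrial HSP70 gene hsp-6 (chromosome V, 4824124 to 4826760) had 330, 395 and 378 CPM in daf-2 at day 9 and 443, 612 and 567 CPM in daf-2 at day 1. Levels in wild type were 313, 247 and 271 CPM at day 9 against 688, 928 and 679 CPM at day 1. It fell in both and less in daf-2 (0.91 ± 0.22, adjusted p = 0.035), not called when daf-2 day 9 replicate 2 or 3, daf-2 day 1 replicate 1, wild-type day 9 replicate 2 or 3 or wild-type day 1 replicate 2 was left out (adjusted p up to 0.101). The RNA exosome subunit gene exos-4.1 had the same form (0.78 ± 0.17, adjusted p = 0.019), lost without wild-type day 9 replicate 1 or 3, daf-2 day 1 replicate 1 or daf-2 day 9 replicate 2 (adjusted p up to 0.0537).

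Some genes rose with age in daf-2 and not, by the test, in wild type. The gene asm-2, for an acid sphingomyelinase, had 59.7, 47.5 and 84.5 CPM in daf-2 at day 9 and 29.6, 30.8 and 26.3 CPM in daf-2 at day 1. Wild-type levels were 20, 19.2 and 24.5 CPM at day 9 against 28.4, 40.4 and 20.4 CPM at day 1 (1.63 ± 0.34, adjusted p = 0.02). Its call was lost without wild-type day 9 replicate 1 or 2 or daf-2 day 1 replicate 1 (adjusted p up to 0.0606). The RNA helicase gene ddx-17 (0.70 ± 0.18, adjusted p = 0.038) kept its call without wild-type day 1 replicate 1 or 3 or daf-2 day 1 replicate 3 and lost it without each of the other 9 libraries (adjusted p up to 0.112). The gene sosi-1 rose in both genotypes and more in daf-2: 26.8, 34.8 and 28.5 CPM in daf-2 at day 9 and 5.07, 3.63 and 4.24 CPM in daf-2 at day 1. The wild-type values were 8.62, 5.4 and 6.74 CPM at day 9 against 4.89, 2.76 and 3.55 CPM at day 1 (1.91 ± 0.33, adjusted p = 0.0065, called in all 12 fits). One pair of values is uncertain: 2 genes of the same annotated name, pud-2.2 (WBGene00017500 and WBGene00017490 on chromosome V), were called in opposite directions. Both held 426 counts in daf-2 at day 9, while in wild type at day 9 the first had 0 and the second 4488. The copies are near-identical, so the counting could split reads between them in different ways.

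Large housekeeping groups held no called gene by edgeR, apart from 1 gene of the mitochondrial genome, but leaned to one side. All 33 proteasome genes (32 under upper-quartile scaling) had an interaction above 0 (median 0.36), with 0 called, 22 at an unadjusted p under 0.05 and above 0, 9 called by DESeq2 and 0 by limma voom. The subunit gene rpt-4 had 182, 190 and 202 CPM in daf-2 at day 9 and 248, 286 and 274 CPM in daf-2 at day 1. Its wild-type level was 182, 171 and 174 CPM at day 9 against 299, 329 and 327 CPM at day 1, a fall in both genotypes (0.36 ± 0.13, adjusted p = 0.11). Of 82 cytosolic ribosomal protein genes 79 had an interaction above 0 (median 0.23), with 0 called, 4 at an unadjusted p under 0.05, and 0 by DESeq2 and by limma voom. Of 36 cytosolic HSP70, HSP90 and co-chaperone genes 30 lay above 0 (median 0.29), with 0 called, 17 at an unadjusted p under 0.05, 10 by DESeq2 and 3 by limma voom. Of 71 nuclear genes of the respiratory chain 65 lay above 0 (median 0.25), with 0 called, 17 at an unadjusted p under 0.05, 6 by DESeq2 and 0 by limma voom. Over all tested genes 3691 of 15523 had an unadjusted p under 0.05. The respiratory chain share was near that and the ribosomal share under it, while those of the proteasome and HSP genes were above it. All 12 protein-coding genes listed of the mitochondrial genome fell with age in both genotypes and had an interaction above 0 (median 0.57). One of them, WBGene00010967 (MtDNA, 11691 to 13272), was called (0.92 ± 0.18, adjusted p = 0.011), and 3 were without wild-type day 1 replicate 3. The median of all genes was -0.05 with TMM, 0.00 with RLE and -0.09 with upper-quartile scaling, and the 5 list medians kept their sign under each: for the proteasome they were 0.42 with RLE and 0.32 with upper-quartile scaling. Upper-quartile scaling called 1 proteasome, 2 respiratory chain and 3 HSP genes.

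Germ line and muscle genes mostly lay on opposite sides of 0. The side below 0 was not particular to muscle. It also held 37 of 43 synaptic and neuronal genes (median -0.43, 2.33% called) and 22 of 28 intestinal genes (median -0.60, 7.14% called). Of 56 oocyte and germ line genes 53 had an interaction above 0 (median 0.39), with 0 called by edgeR, 17 at an unadjusted p under 0.05, 7 by DESeq2 and 2 by limma voom. With upper-quartile scaling edgeR called 5 of them higher, and 51 lay above 0. Of 41 body wall muscle genes 35 lay below 0 (median -0.35), with 0 called, 3 at an unadjusted p under 0.05, 2 by DESeq2 and 1 by limma voom, and 1 was called lower with upper-quartile scaling. The 34 tested markers of 10 tissues were not called either, with 10 at an unadjusted p under 0.05, 5 called by DESeq2 and 1 by limma voom. For scale, 3691 of all 15523 tested genes had an unadjusted p under 0.05. The 4 germ line markers summed to 2533 to 3040 CPM in daf-2 at day 9, 3179 to 4586 in daf-2 at day 1, 2180 to 2659 in wild type at day 9 and 5423 to 7056 in wild type at day 1. The sperm genes, with 0 of 83 called by edgeR, 4 at an unadjusted p under 0.05, 2 by DESeq2 and 0 by limma voom, were lowest in replicate 3 among the 3 libraries of each genotype at day 9. The part of these tissue levels in the results above was not tested.

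The same genes were also set between the genotypes within each age. Of the 713 genes with a lower interaction, 288 differed between genotypes at day 9 and not at day 1, where daf-2 was the lower. Another 279 differed at day 1 and not at day 9, where daf-2 was the higher at day 1. A further 72 were called at both ages with opposite signs, higher in daf-2 at day 1 and lower at day 9, 42 at both ages with the same sign and 32 at neither. The interaction is the genotype difference at day 9 minus that at day 1, so the choice of these genes largely fixes such signs and nothing is read from them. Across all tested genes, 10.6% were called between genotypes at day 9 (4.41% higher and 6.16% lower in daf-2) and 15.4% at day 1 (10.2% higher and 5.17% lower). The gene cpr-1 was of the first kind (daf-2 over wild type -5.97 at day 9, adjusted p = 2.2e-05, and -0.83 at day 1, adjusted p = 0.19), and lys-7 and dct-8 of the second. Of the 94 genes with a higher interaction 24 were called at day 9 alone, higher in daf-2, and 52 at day 1 alone, lower in daf-2.

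**Figure D5:**
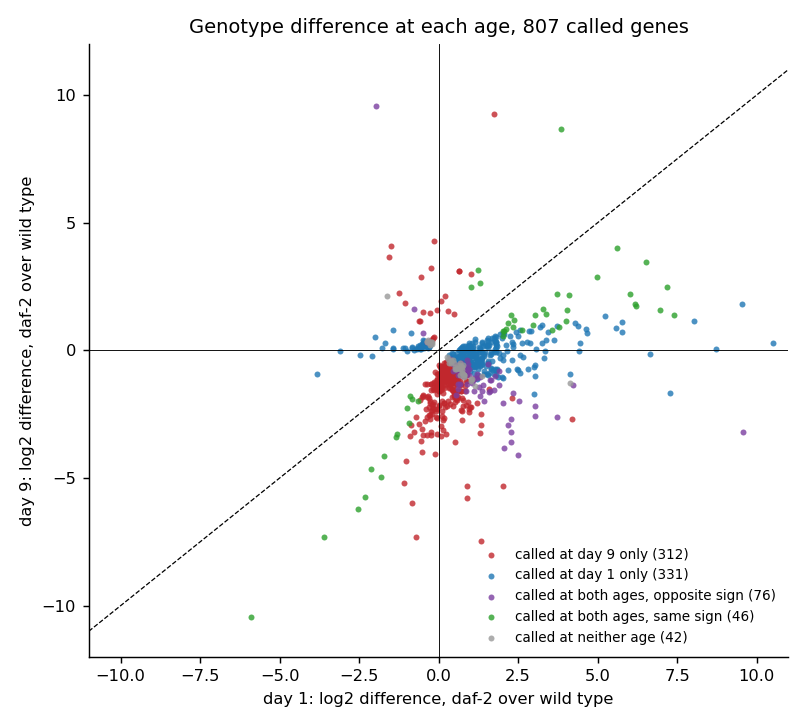
Log2 difference daf-2 over wild type at day 9 (vertical axis) against that at day 1 (horizontal axis) for the 807 called genes, 1 point each, coloured by the age at which the genotype difference was called; the dashed line marks an equal difference at both ages. Of these, 312 were called at day 9 alone, 331 at day 1 alone and 76 at both with opposite signs.

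The called genes were spread over all chromosomes, from 2.91% of the tested genes on chromosome I to 7.83% on chromosome V and 6.50% on chromosome X. Of the 807, 377 had a sequence name or no name in the annotation, 787 were protein-coding and 182 belonged to at least 1 of the 52 gene lists. Some genes are in more than 1 list, so the calls of different lists are not always different genes. For 40 of them 1 of the 4 groups held under 10 counts in its 3 libraries together, and for 6 it held 0.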

How the data were processed

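Whole-animal RNA was sequenced in 12 libraries of 4 groups, and the authors deposited whole-number read counts per gene and library. Per the submitters' processing notes, the tools included DESeq2 1.22.2, RSEM 1.3.1 and STAR 2.7.0e, and WBcel235 and ce11 were named as builds, without their roles. Per the labels' protocols the library kit was unstranded, and a gene and its antisense partner cannot be told apart. No source used here says whether the counts were rounded from estimates. No entry lacked a gene (0 rows), and 46603 of 46778 identifiers matched the annotation, which supplied names and coordinates.

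From the counts, all 12 libraries were fitted as 4 group means with edgeR 4.0.16 in R 4.3.3 (TMM scaling, robust quasi-likelihood test). Genes passed a filter with a minimum count of 10, and p-values were adjusted by Benjamini-Hochberg over 15523 genes, with 0.05 as the threshold. SE is the size of the log2 change over the square root of F. CPM values are counts scaled by TMM library sizes, and 3 counts correspond to 0.0541 to 0.18 CPM in a library. Alternatives were RLE and upper-quartile scaling, no filter, a minimum count of 50, DESeq2 1.42.0, limma 3.58.1 voom with quality weights, the replicate number as a block, each library left out and, chosen after seeing the data, the replicate number within each age as a block. Replicates of a group had r of 0.969 to 0.987 in log2 CPM (prior count 0.5) and their counts did not agree within sampling noise (chi-square per degree of freedom 12.2 to 109.4), so none was counted as a duplicate.

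Genes named were, for each class and sign, up to 3 with the largest interaction among named genes with a mean of 10 CPM in 1 group, at least 10 counts in each group and no overlap between the day 9 minus day 1 differences of the 2 genotypes; also 10 genes of the study, and of each list up to 4 called members with the smallest p and up to 4 that define it. Genes and examples chosen after their values were seen were age-1, akt-1, sek-1, mtl-1, spp-1, spp-4, spp-5, spp-21, cpr-6, lys-6, lys-8, elt-2, rpt-4, nlp-29, daf-22, maoc-1, acs-2, ugt-1, gst-3, spp-20 and spp-31. The members, lists and tests were chosen with earlier results of these data known.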

Additional observations from a re-analysis of the deposited data

Results flagged for a closer look

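All results listed here were marked because the change with age differed between daf-2 and wild type by a test of that difference, edgeR's interaction contrast at an adjusted p under 0.05. They comprise the 713 genes with a lower and the 94 with a higher interaction, and 28 named genes. Opposite signs in the genotypes gave interactions of -6.60 for cpr-4, -5.87 for argk-1, -5.59 for far-3, 5.20 for comt-4, 0.94 for pcbd-1 and -2.25 for zip-10. Smaller changes in daf-2 gave -5.05 for dct-8, -4.52 for ilys-3, -4.24 for cpt-3, 1.89 for gst-38, 0.91 for hsp-6 and 0.78 for exos-4.1.

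Changes called in wild type and not in daf-2 gave -6.60 for ins-7, -5.18 for spp-2, -4.74 for oac-14, 2.88 for acdh-2, 1.48 for paic-1 and 0.71 for pole-4. Changes called in daf-2 and not in wild type gave -3.46 for nspc-20, -3.23 for cth-1, -3.01 for spp-25, 1.63 for asm-2 and 0.70 for ddx-17. Stronger changes in daf-2 gave -4.54 for ilys-5, -4.11 for oac-20, -3.30 for spp-17, -2.27 for sysm-1 and 1.91 for sosi-1. The genes oac-14 and oac-20 belong to a family of membrane acyltransferases, and both were called in each of the 12 fits without a library. The first had 14.1 ± 8.33 CPM in daf-2 at day 9, 25.1 ± 14.6 in daf-2 at day 1, 46.5 ± 3.25 in wild type at day 9 and 2.99 ± 1.89 in wild type at day 1 (SD, n = 3; interaction -4.74 ± 0.86, adjusted p = 0.011). The second had 0.0862 ± 0.0941 CPM in daf-2 at day 9, 8.89 ± 3.8 in daf-2 at day 1, 3.8 ± 1.39 in wild type at day 9 and 18.9 ± 5.47 in wild type at day 1 (SD, n = 3; interaction -4.11 ± 0.74, adjusted p = 0.01).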

How the results depend on the processing

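No interaction of the 145 named called genes changed sign under any alternative run, and of these 133 were still called with RLE scaling, 143 with upper-quartile scaling, 126 without a filter on low counts, 123 with limma voom, 137 of the 137 tested with the stricter filter and all that DESeq2 tested. Without 1 library 90 to 137 of them were still called, with 90 without daf-2 day 1 replicate 1 and 96 without wild-type day 9 replicate 3. The count of higher genes was 147 with upper-quartile scaling, 170 with the stricter filter and 481 with DESeq2, which called 1155 lower. DESeq2 gave 379 weaker, 685 not called in daf-2, 321 gained, 129 stronger and 18 called in neither genotype; the cause was not tested. Leaving out 1 library gave 28 to 237 higher and 376 to 1073 lower genes, with 51 to 138 opposite, 88 to 228 weaker, 146 to 584 not called in daf-2, 64 to 256 gained, 29 to 105 stronger and 0 to 1 in neither. With the replicate number as a block 93 genes were called higher and 624 lower, and 126 named genes stayed called. That block called 2 cathepsin and 9 transthyretin-related genes lower, 3 mitochondrial genome genes and 2 DAF-16 targets higher, and 0 genes higher in the fat and UDP-glycosyltransferase lists. Over 18 same-number pairs the correlation of deviations from the group means was -0.32 to 0.54 (median 0.01, against 0.04 for other pairs), and 8 of 12 libraries correlated best with a library of their own number. The 5 pairs over 0.1 were all between genotypes at the same age: it was 0.13 to 0.54 in the 3 pairs at day 9 and 0.02 to 0.28 in the 3 at day 1, with 0 over 0.1 across ages. The numbers were therefore not taken as pairs over the 4 groups. A block of the replicate number within each age, chosen after seeing the data, called 174 genes higher and 784 lower and kept 121 of the 145 named genes. It called 6 oocyte and germ line, 4 HSP, 2 proteasome and 5 glutathione S-transferase genes higher, and 0 in the fat list. Genes with under 10 counts in a group have folds that depend on the prior count.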
